A study of Mus musculus with 6 samples.

Results

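The miRNAs described here come from the imprinted loci Mest, H19, Igf2 and Gnas. They were taken by name from a TaqMan array of individual real-time PCR assays, as the assays numbered miR-335 (Mest), miR-675 (H19), miR-483 (Igf2), and miR-296 or miR-298 (Gnas), with the passenger strand assays whose names end in # left out. This rule found 8 of the 750 miRNA assays, all named for mouse: 2 for Mest, 2 for H19, 1 for Igf2 and 3 for Gnas. The assay of mmu-miR-483 lies on card B of the array and the other 7 on card A.

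The array was run on total RNA from pooled blastocysts of Kunming mice, collected from superovulated and mated females, with 3 vitrified pools (V1, V2 and V3) and 3 fresh control pools (F1, F2 and F3). The vitrified blastocysts were equilibrated for 30 seconds in ethylene glycol and DMSO, each at 10%, and spent 25 seconds in EDFS30, a mixture of these agents at higher concentration with Ficoll and sucrose, inside an open-pulled straw before they were plunged into liquid nitrogen. They were thawed in sucrose and washed in CZB medium, and the fresh blastocysts were neither vitrified nor thawed. Each pool mixes the inner cell mass and the trophectoderm of many embryos, and the time between thawing and lysis was not given for the array pools. In such bulk samples, fewer cells of a type and less RNA per cell cannot be told apart.

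In mammals an imprinted gene is transcribed mainly from the allele of one parent, and the choice is carried by DNA methylation set in the germline, which the early embryo has to maintain through its cleavage divisions. Mest and Igf2 are expressed from the paternal allele and H19 from the maternal one, whereas the Gnas locus makes maternal, paternal and biallelic transcripts. Igf2 is a fetal growth factor, H19 is a long non-coding RNA that restrains growth, Gnas encodes the stimulatory G protein alpha subunit, and Mest is named for its expression in mesoderm. A miRNA inside such a gene is cut from its transcript as a hairpin, from which Dicer releases the 5p and 3p arms. The strand that is loaded into Argonaute finds its targets mainly through its seed, bases 2 to 8 from the 5′ end.

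In the RefSeq annotation of GRCm38.p6, Mir335 lies within the span of Mest, Mir675 within that of H19 and Mir483 within that of Igf2. Mir296 and Mir298 overlap no other gene and have each other as the nearest miRNA gene and Gnasas1, the antisense transcript of the Gnas locus, as the nearest gene of another kind. The table does not separate exons from introns. A mature RefSeq sequence of the same name was found for 6 of the 8 assays, and these are shown because the results below turn on which arm of each hairpin was found. The names mmu-miR-298 and mmu-miR-483 give no arm and were not matched. Capitals mark the seed.

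mmu-miR-335-5p, chr6:30741314-30741336 (+): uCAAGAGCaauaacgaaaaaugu
mmu-miR-335-3p, chr6:30741354-30741375 (+): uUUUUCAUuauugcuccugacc
mmu-miR-296-5p, chr2:174267093-174267113 (-): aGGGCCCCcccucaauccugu
mmu-miR-296-3p, chr2:174267058-174267079 (-): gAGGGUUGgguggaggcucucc
mmu-miR-675-5p, chr7:142577112-142577133 (-): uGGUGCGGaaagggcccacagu
mmu-miR-675-3p, chr7:142577078-142577099 (-): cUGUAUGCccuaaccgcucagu

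No seed was shared among the 6 sequences, and none occurred in another mature mouse miRNA of the table, so they form no seed family. Their base composition differed widely. The arms of miR-335 held 30.4% (5p) and 36.4% (3p) G and C, those of miR-296 held 66.7% and 68.2%, and those of miR-675 held 63.6% and 54.5%.

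The threshold cycle (Ct) is the PCR cycle at which the fluorescence of a well crosses a threshold, so an earlier Ct means more template, and a well that did not cross by cycle 40 was recorded as undetermined. Pools V1 and F1 stood apart from the other 4. A Ct was obtained for 218 of the 750 miRNA assays in V1 and 140 in F1, but for 382 to 409 in V2, V3, F2 and F3. None of the 14 assays for miR-290 to miR-295, the cluster that marks the mouse blastocyst and embryonic stem cells, was determined in V1 or F1, while 7 to 9 of them were determined in each other pool, the earliest at a Ct of 23.04 to 25.47. Of the 5 assays of blood miRNAs (miR-451, miR-142 and miR-223), all were determined in V2, V3, F2 and F3, with the earliest at 20.74 to 22.09. In V1 there were 4 and in F1 3, with the earliest at 25.50 and 26.10. Of the 3 muscle assays (miR-133a, miR-133b and miR-206), 2 were determined in V1 and in F1, and all 3 in each other pool. The 1 liver assay, mmu-miR-122, was determined only in V3 (Ct 32.87) and F2 (Ct 32.85). V1 and F1 thus lacked the markers of their labelled cell type, and the results below are given with and without them. The part that RNA of other cells has in the levels of the imprinted-locus miRNAs was not tested.

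Of the 48 wells of the 8 assays, 15 gave a Ct (31.2%), against 43.6% of all 4500 miRNA wells. V3 had the most, with 5 determined wells, F1 had 0, V1 had 1, and V2, F2 and F3 had 3 each. Vitrified pools had a mean of 3.0 ± 2.0 wells and fresh pools one of 2.0 ± 1.7 wells (SD, n = 3 each), a difference within the spread of each group (p = 0.7 by a 2-sided exact permutation test, which cannot go below 0.1 for 3 pools against 3). All 15 determined wells were also under 35 cycles. Without V3, or without F1, the difference was 0.

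In each of the pools numbered 2 and 3, mmu-miR-335-5p, mmu-miR-335-3p and mmu-miR-296-5p were determined, which is 3 of 8 assays (37.5%), against 326 of all 750 (43.5%). The assay of mmu-miR-335-5p was determined in V1 as well. The assays of mmu-miR-675-3p and mmu-miR-298 were determined in V3 only. The remaining 3 assays, mmu-miR-296-3p, mmu-miR-675-5p and mmu-miR-483, were undetermined in all 6 pools, and so was mmu-miR-483#, the passenger strand assay of the same hairpin.

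**Figure D1:**
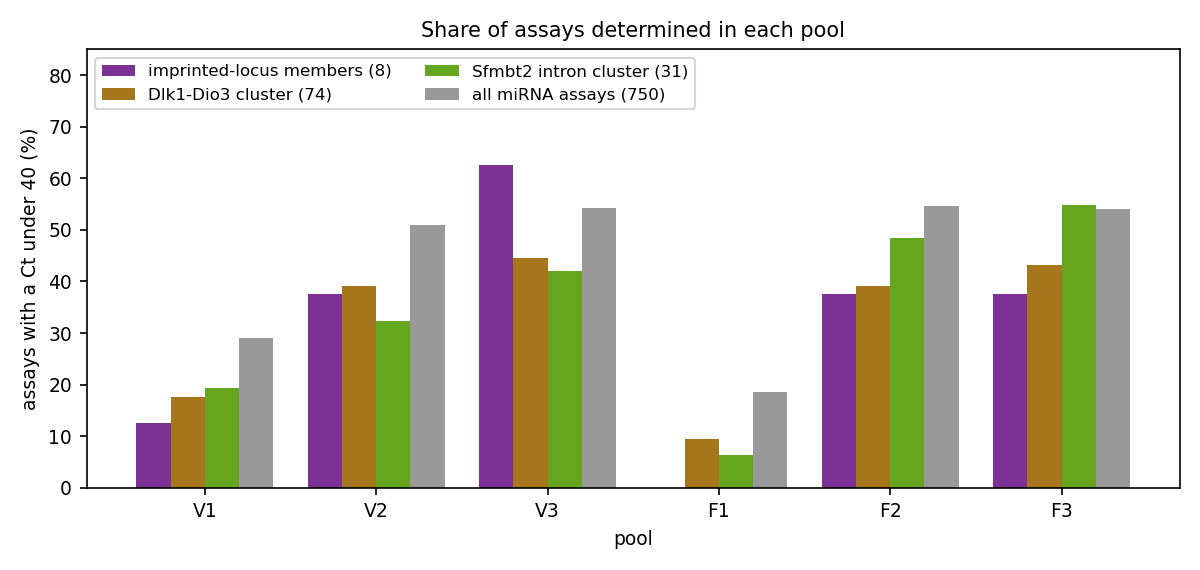
Share of assays with a Ct under 40 cycles in each pool (vertical axis, percent), for the 8 assays of the Mest, H19, Igf2 and Gnas loci, 2 other imprinted miRNA clusters and all 750 miRNA assays, with the number of assays in brackets. The share for the 8 assays was 0% in F1, 12.5% in V1, 62.5% in V3 and 37.5% in the other 3 pools.

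The other imprinted miRNA clusters give a comparison. The Dlk1-Dio3 cluster, processed from maternally expressed non-coding RNAs, had 143 of 444 wells determined (32.2%), and the cluster in an intron of Sfmbt2, a paternally expressed gene of the trophoblast lineage, had 63 of 186 (33.9%). Both clusters were also lowest in F1, at 9.46% and 6.45% of their assays, and next lowest in V1, at 17.6% and 19.4%. All 3 sets lay below the share of all miRNA assays in V1 and F1, which was 29.1% and 18.7%. They also lay below it in V2 and F2, where it was 50.9% and 54.5%. In V3 the 8 assays lay above it (62.5% against 54.3%), and in F3 the Sfmbt2 cluster did (54.8% against 54.0%).

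mmu-miR-335-5p, the 5p arm of the Mest hairpin, was the assay of the set found in most pools. Among vitrified pools its raw Ct was 34.38 (V1), 28.53 (V2) and 28.41 (V3), and among fresh pools 28.58 (F2) and 28.97 (F3), with F1 undetermined. The Ct values of V2, V3, F2 and F3 lay within 0.56 cycles of each other, and V1 stood far later. Each Ct was then expressed relative to the mean of the 4 U6 snRNA wells of that card and pool, and their difference is ΔCt. The ΔCt was 16.57 (V1), 11.43 (V2) and 11.44 (V3) for vitrified and 12.00 (F2) and 12.01 (F3) for fresh blastocysts, while a well at the limit of 40 cycles in F1 corresponds to a ΔCt of 22.92. The U6 reference itself hardly followed the loss of signal in V1 and F1, with a mean Ct of 17.82 and 17.08 there and 16.59 to 17.10 in the other pools, while snoRNA202 on the same card came at 25.90 and 27.47 against 17.79 to 18.22. ΔCt in the pools numbered 1 therefore depends on which small RNA is the reference. Relative to U6, V2 and V3 were slightly earlier than both fresh values, and V1 later than all of them.

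In the linear model over all pools, the difference of mmu-miR-335-5p between vitrified and fresh blastocysts was smaller than its error. The vitrified mean ΔCt was 13.15 ± 2.96 (SD, n = 3), and that of the fresh pools, with F1 left out as undetermined, was 12.00 ± 0.01 (SD, n = 2). On the log2 scale of −ΔCt, where a positive value means a higher level in vitrified blastocysts, the fold change was −1.14 (standard error 1.90, 95% confidence interval −5.94 to 3.65, limma adjusted p = 0.998). An exact permutation test of the means gave p = 1.0, where 0.1 is the smallest p of 3 against 2. The direction of this value rested on V1, since the log2 fold change was 0.57 without it and also 0.57 with the pool number as a block, and on the reference, since it was 0.54 with the other small RNA controls of the card in place of U6.

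Restricted to the pools numbered 2 and 3, a choice made after seeing the data, mmu-miR-335-5p had a mean ΔCt of 11.44 ± 0.01 when vitrified and 12.00 ± 0.01 when fresh (SD, n = 2 each). The log2 fold change was 0.57 (standard error 0.55, 95% confidence interval −0.85 to 1.98, limma adjusted p = 0.912), and it was 0.57 between V2 and F2 and 0.57 between V3 and F3. The groups did not overlap (exact permutation p = 0.333, the smallest that 2 against 2 allow), which held for 28.8% of the 326 assays tested in these pools, 18.1% with the level higher and 10.7% with it lower in vitrified blastocysts. In raw Ct, without U6, V2 was earlier than F2 by 0.05 cycles and V3 earlier than F3 by 0.56 cycles. Without a reference the log2 fold change in these pools was 0.30 (limma adjusted p = 0.872). With those controls the log2 fold change in these pools was −0.25, and the median over all tested assays was −0.84 with these controls and −0.02 with U6. The 2 ΔCt values of each group lay closer together than the 4 U6 wells of one card, whose SD was 0.098 to 0.51 cycles in these pools.

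**Figure D2:**
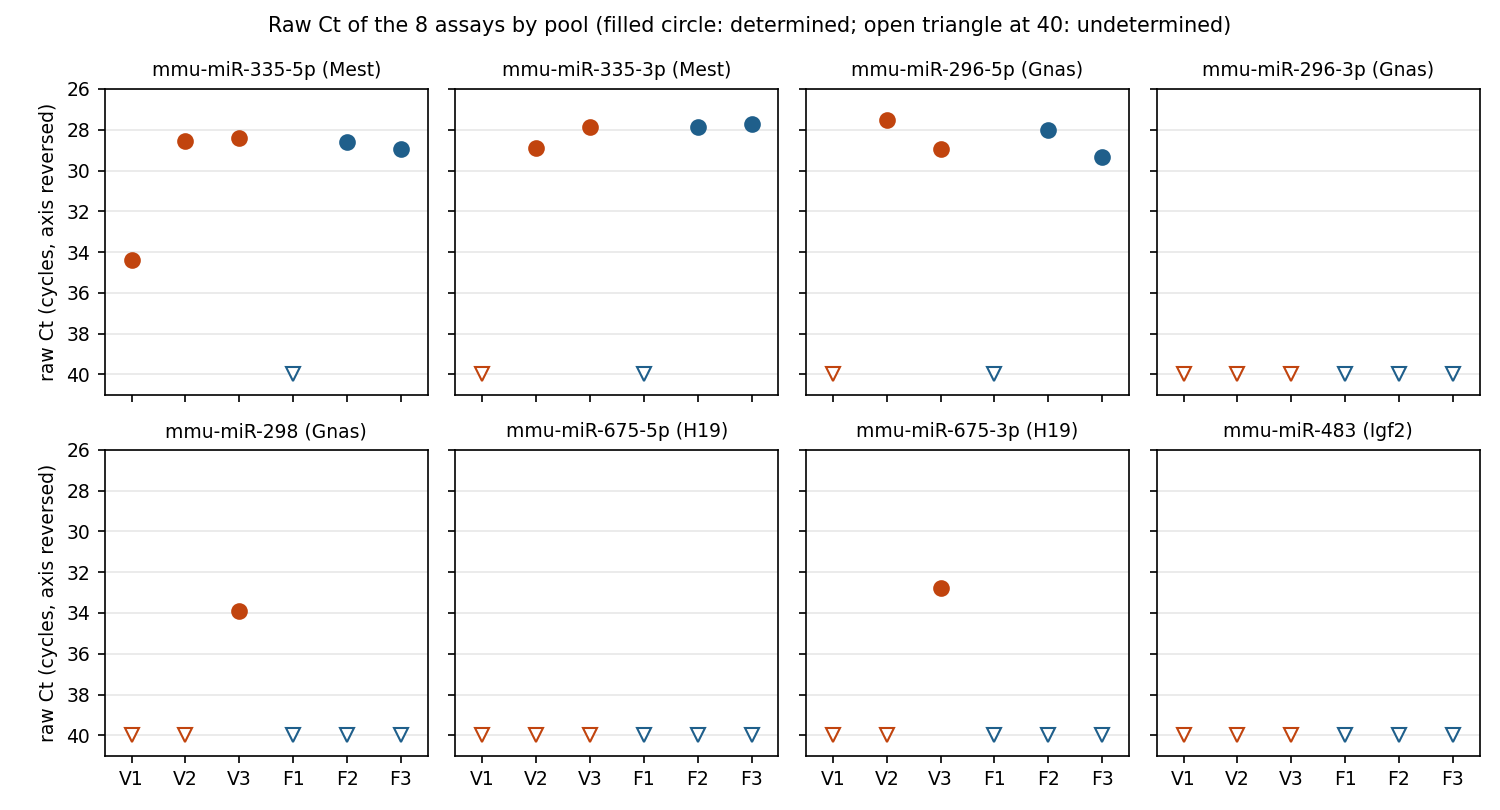
Raw Ct (vertical axis in cycles, reversed so that more template is higher) of the 8 assays in the 3 vitrified pools (V1 to V3) and the 3 fresh pools (F1 to F3), 1 well per point. Filled circles are determined wells and open triangles at 40 cycles are undetermined wells. The assays of mmu-miR-335-5p, mmu-miR-335-3p and mmu-miR-296-5p lie between 27.54 and 29.33 cycles in V2, V3, F2 and F3.

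The late Ct of mmu-miR-335-5p in V1 was close to the median shift of the card A assays that still gave a Ct there. It came 5.91 cycles after the mean of V2 and V3. The median over the 130 card A assays determined in all 3 vitrified pools was 5.65 cycles, with 57 of them delayed more. Their shifts ran from −6.70 to 11.17 cycles, and assays lost in V1 are not counted in this median. Its loss in F1 was also common among assays of similar Ct. Of the 33 other card A assays whose mean Ct in V2, V3, F2 and F3 lay within 1 cycle of its own (28.62), 29 were undetermined in F1 (87.9%) and 17 in V1 (51.5%). In 12 of these 33 the pattern was that of mmu-miR-335-5p, determined in V1 and undetermined in F1.

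mmu-miR-335-3p, the opposite arm of the same hairpin, was undetermined in V1 and F1. The vitrified pools had a raw Ct of 28.90 (V2) and 27.87 (V3), and the fresh pools one of 27.88 (F2) and 27.71 (F3). V2 was the latest of the 4, and V3 lay between the fresh values. The ΔCt was 11.79 (V2) and 10.91 (V3) against 11.29 (F2) and 10.76 (F3), so the groups overlapped. The mean ΔCt of vitrified blastocysts was 11.35 ± 0.63 and that of fresh ones 11.02 ± 0.38 (SD, n = 2 each), and the log2 fold change was −0.33 (standard error 1.17, 95% confidence interval −3.49 to 2.84, limma adjusted p = 0.998; exact permutation p = 0.667, where 0.333 is the smallest possible). The difference between same-numbered pools was −0.50 (V2 minus F2) and −0.15 (V3 minus F3) on the log2 scale. The value was −1.14 when the other small RNA controls replaced U6 and 0.0082 when the mean of the card's miRNA assays determined in all 6 pools (the global mean) did.

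Since both arms of miR-335 are measured on card A, the difference of their Ct values in a pool needs no reference. The Ct of the 3p assay minus that of the 5p assay was 0.36 in V2 and −0.54 in V3, and −0.70 in F2 and −1.25 in F3. The 3p assay was thus the earlier one in 3 of 4 pools, and both vitrified values lay above both fresh values. Vitrified pools averaged −0.09 ± 0.63 cycles and fresh pools −0.98 ± 0.39 cycles (SD, n = 2 each), a difference of 0.89 cycles (exact permutation p = 0.333, the smallest that 2 against 2 allow). Between same-numbered pools, which the labels do not state to be paired, it was 1.07 (V2 minus F2) and 0.72 (V3 minus F3) cycles. How efficiently each assay amplifies is not known, so the sign of the difference within a pool does not say which arm was more abundant.

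The same difference was computed for the 13 hairpins with both arms on one card and determined in V2, V3, F2 and F3. The groups did not overlap for 6 of them (46.2%), miR-335 included, and in all 6 the vitrified values were the higher ones. The difference between vitrified and fresh blastocysts ran from −0.41 to 4.65 cycles, and that of miR-335 was the median of the 13, with 6 larger and 6 smaller in size. The arm difference of miR-335 thus lay in the middle of these hairpins.

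**Figure D3:**
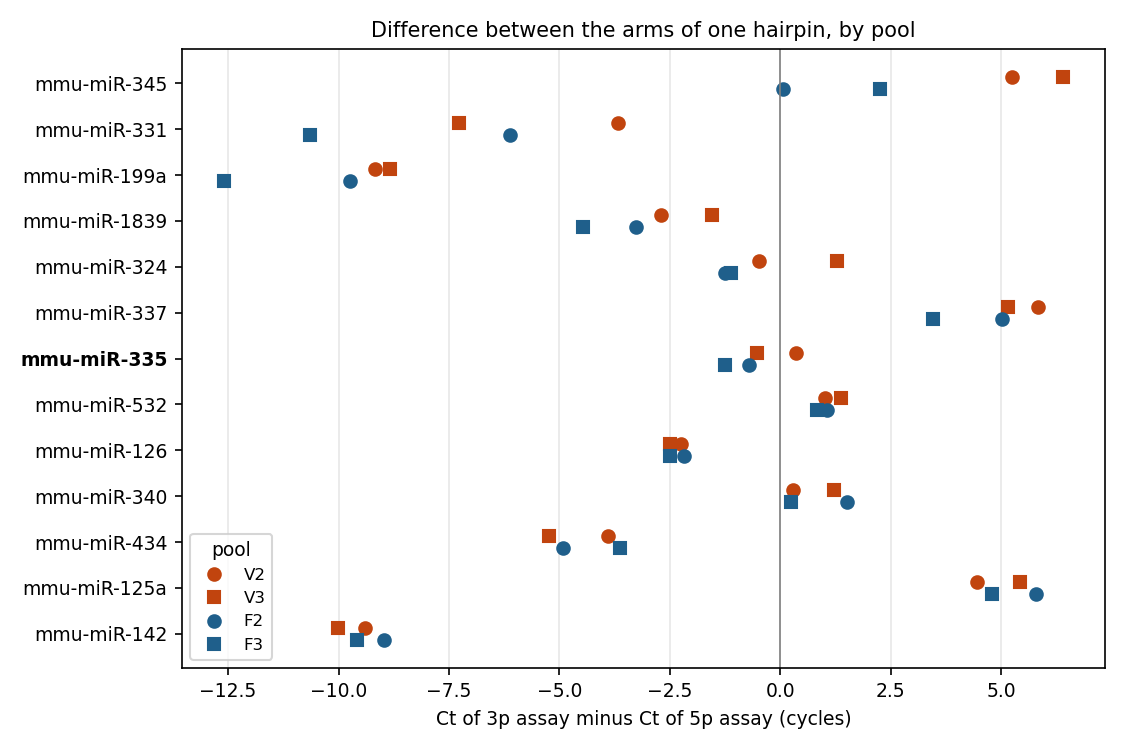
Ct of the 3p assay minus Ct of the 5p assay (horizontal axis, cycles) for the 13 hairpins with both arms determined in V2, V3, F2 and F3, ordered by the difference between vitrified (red) and fresh (blue) blastocysts. Each point is 1 pool, with circles for pools numbered 2 and squares for pools numbered 3. For mmu-miR-335 (bold) the vitrified pools lie at 0.36 and −0.54 and the fresh pools at −0.70 and −1.25, at the middle of the order.

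mmu-miR-296-5p was the only assay of the Gnas locus found in more than 1 pool. It gave a raw Ct of 27.54 (V2), 28.92 (V3), 28.00 (F2) and 29.33 (F3), and no Ct in the pools numbered 1. The pools numbered 3 were later than those numbered 2 in both groups, by 1.38 cycles in vitrified and 1.33 cycles in fresh blastocysts. With U6 subtracted, the ΔCt was 10.44 (V2) and 11.96 (V3) against 11.41 (F2) and 12.38 (F3), and the groups overlapped. The vitrified mean was 11.20 ± 1.07 and the fresh mean 11.90 ± 0.68 (SD, n = 2 each), and the log2 fold change was 0.70 (standard error 1.27, 95% confidence interval −2.74 to 4.14, limma adjusted p = 0.998; exact permutation p = 0.667). The difference between same-numbered pools, which the labels do not state to be paired, was 0.98 (V2 minus F2) and 0.42 (V3 minus F3) on the log2 scale. With the other small RNA controls in place of U6 the log2 fold change was −0.12.

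**Figure D4:**
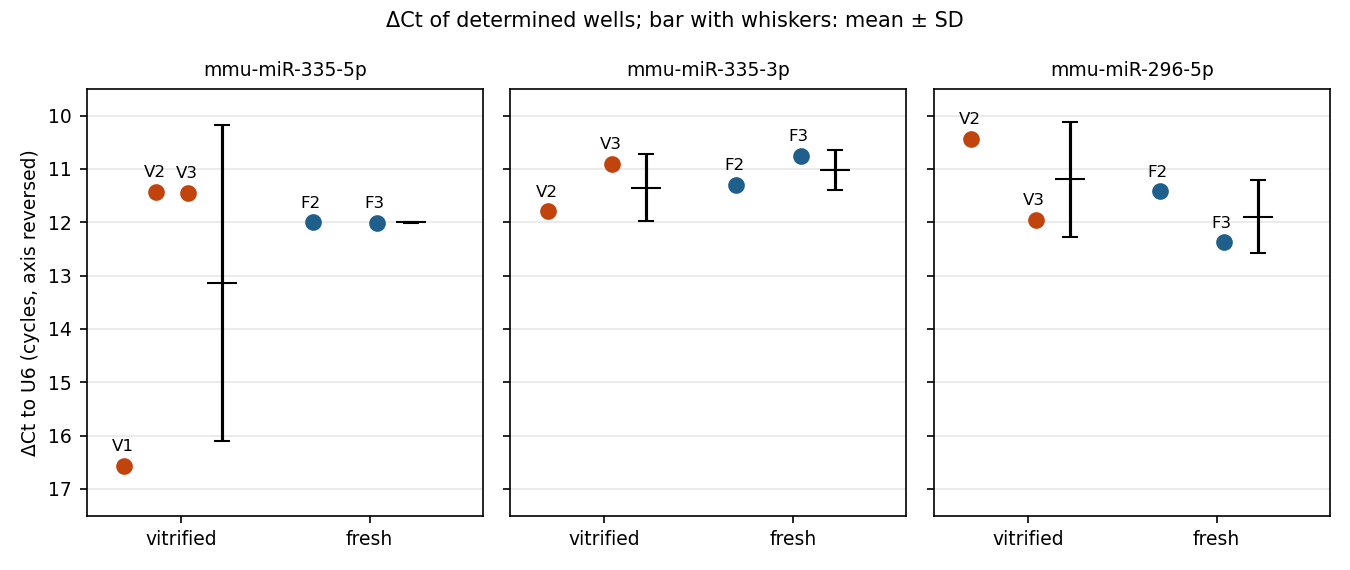
ΔCt to U6 (vertical axis in cycles, reversed) of the determined wells of the 3 assays compared between vitrified (red) and fresh (blue) blastocysts. Points are pools, and the black bar with whiskers is the mean ± SD of the group, over 2 pools except for mmu-miR-335-5p in vitrified blastocysts, where V1 at 16.57 gives 3.

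The absence of mmu-miR-296-5p and mmu-miR-335-3p from V1 and F1 was shared with many assays of their range. Among the other card A assays within 1 cycle of the mean Ct of mmu-miR-296-5p, 18 of 37 (48.6%) were undetermined in V1 and 31 of 37 (83.8%) in F1. For mmu-miR-335-3p these counts were 16 of 35 (45.7%) and 26 of 35 (74.3%).

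These 3 assays entered the comparison of all assays, and the other 5 did not, since at least 2 determined wells in each group were required. In the limma fit 0 of the 335 assays tested (0%) passed 0.05 after adjustment and 1 (0.299%) before it, and none of the 3 was among these. In the unmoderated test of the study's methods the counts were 0 and 9. Of the 3, mmu-miR-296-5p had a log2 fold change above 0, against 48.1% of all tested assays, and the median of the 3 was −0.33, against −0.05 over all. In the pools numbered 2 and 3 alone, 0 of 326 assays (0%) passed at the adjusted level and 16 (4.91%) at the unadjusted level, again without any of the 3. There mmu-miR-335-5p and mmu-miR-296-5p were above 0, against 49.4% of all, and the median of the 3 was 0.57, against −0.02 over all, so its sign turned with V1. In the same fit of all pools, 0 of 22 tested Dlk1-Dio3 assays and 0 of 11 tested Sfmbt2 assays passed at either level, with median log2 fold changes of −0.65 and 0.03. Restricted to the pools numbered 2 and 3, 0 assays of either cluster passed after adjustment and 1 of 22 and 1 of 10 before it, with medians of −0.14 and 0.50.

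**Figure D5:**
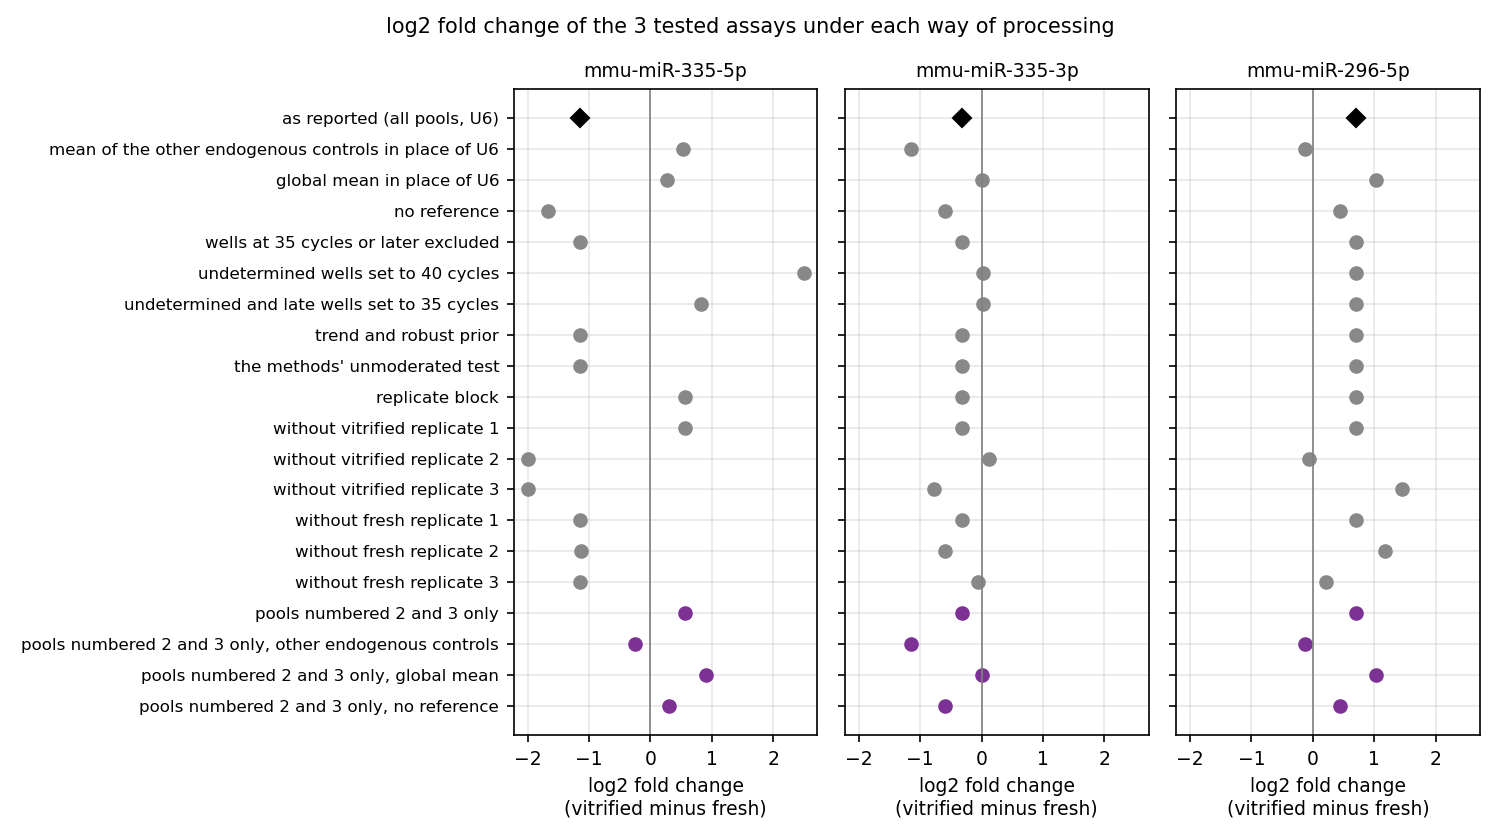
Log2 fold change of vitrified against fresh blastocysts (horizontal axes) for the 3 tested assays under each way of processing (rows). The diamond is the value with all pools and U6, grey points change 1 choice, and purple points use the pools numbered 2 and 3 only. The sign changed under at least 1 choice for each of the 3 assays, and none of the points passed the adjusted threshold.

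By Ct, the 3 regularly detected assays lay near or somewhat past the middle of the determined assays of card A, with undetermined assays not ranked. Among the assays determined on card A, the share with an earlier Ct was 54.3% to 60.7% for mmu-miR-335-5p in V2, V3, F2 and F3, 49.6% to 63.7% for mmu-miR-335-3p and 52.3% to 64.2% for mmu-miR-296-5p. In V1 it was 81.4% for mmu-miR-335-5p. Over these 4 pools, vitrified and fresh together, the mean Ct was 28.09 ± 0.54 for mmu-miR-335-3p, 28.45 ± 0.82 for mmu-miR-296-5p and 28.62 ± 0.24 for mmu-miR-335-5p (SD, n = 4). This SD also holds any difference between the groups, and neighbours in this order differed by less than it. The order also changed between pools, with mmu-miR-296-5p the earliest in V2 and the latest in V3 and F3. Assays amplify with unequal efficiency, so these ranks describe Ct and not molecules.

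The H19 and Igf2 loci gave a single well. mmu-miR-675-3p, from the H19 transcript, had a Ct of 32.76 in V3, a ΔCt of 15.79, and was undetermined in the other 5 pools, and mmu-miR-675-5p was undetermined in all. mmu-miR-298, the neighbour of miR-296 in the Gnas locus, likewise had a Ct of 33.92 in V3 alone, a ΔCt of 16.95. These wells crossed the threshold 7.24 and 6.08 cycles before the limit. No fold change can be given for them, and each has no replicate.

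V3 held more such wells than any other pool. In all, 28 of the 750 miRNA assays (3.73%) were determined in V3 only, against 4 (0.533%) in V1 only, 8 (1.07%) in V2 only, 1 (0.133%) in F1 only, 11 (1.47%) in F2 only and 12 (1.6%) in F3 only. The Ct of these 28 wells ran from 27.57 to 39.84 with a median of 34.75, and 9 of them were earlier than mmu-miR-675-3p and 12 earlier than mmu-miR-298. Of all 407 assays determined in V3, 321 had an earlier Ct than mmu-miR-675-3p and 357 an earlier one than mmu-miR-298. The 3 assays undetermined in every pool gave no signal within 40 cycles. Whether they amplify their targets was not tested, so the level of these miRNAs is not known.

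The assays most like mmu-miR-335-5p across V1, V2, V3, F2 and F3 were mmu-miR-712 (Pearson r = 0.999 of −ΔCt), hsa-miR-196a (r = 0.999) and mmu-miR-451 (r = 0.998), the last of which is an erythroid miRNA. These values describe 5 pools, of which V1 is far below the rest, and 117 of the 194 assays compared had an r of at least 0.9.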

How the data were processed

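The miRNA assays of the TaqMan rodent array, on cards A and B, were compared between 3 vitrified and 3 fresh pools of mouse blastocysts. Per the labels, 30 ng of total RNA was reverse transcribed, pre-amplified and run for 40 cycles, and the authors took the threshold cycle (Ct), a score on a reversed log2 scale, of each of 768 wells per pool. They deposited these raw Ct scores without normalization. A second deposited table holds only the authors' own fold changes and was not used. Pools were grouped and numbered by their labels. Whether pools came from separate animals is not stated, so the p-values measure only the spread between these pools, and 3 pools per group limit the precision of every value.

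Undetermined wells and a Ct of 40 or more were excluded, as in the study's methods. The mean of the 4 U6 wells of the card was subtracted (ΔCt), and −ΔCt was fitted in R 4.3.3 by limma 3.58.1 (lmFit, eBayes) for the 335 miRNA assays with at least 2 determined wells per group. The p-values are 2-sided with Benjamini-Hochberg adjustment over all 335. Single values were compared with 2-sided exact permutation tests. The fit was tested on simulated data. Python 3.11.15, pandas 2.3.3 and numpy 2.4.6 were used for all else. Fits that leave out a pool require 1 determined well per group, and a lone pool is then assumed to vary like the others. Alternatives changed the reference, the treatment of late and undetermined wells, the prior and test, the block and the pools. Those restricted to the pools numbered 2 and 3, and the set of hairpins with both arms, were added after seeing the data.

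The assays named are all those the name rule found, with the 3 most similar assays of the one found in most pools. The members and lists were chosen with earlier results of these data known. Deviations of same-numbered pools from their group means correlated across 122 assays (r = 0.80, 0.78 and 0.67 for numbers 1, 2 and 3). V1 and F1 stood apart in both groups and shift both group means, so these correlations cannot show that the numbers pair the pools. Within the pools numbered 2 and 3 the differences ran oppositely (r = −0.35 across 326 assays). Differences between same-numbered pools and the replicate block are therefore descriptive only. Mature sequences and gene neighbours come from RefSeq (GRCm38.p6), and the Ct table names no genome build.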

Additional observations from a re-analysis of the deposited data

How the results depend on the processing

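No assay passed the adjusted threshold of 0.05 in any of the 20 alternatives (0 calls), and the adjusted p-value of the 3 tested assays stayed between 0.502 and 0.999. Their directions did not hold. For mmu-miR-335-5p, with a log2 fold change of −1.14, it was 0.54 with the other endogenous controls as the reference, 0.28 with the global mean, 2.50 and 0.83 with undetermined wells set to 40 and to 35 cycles, and 0.57 with the replicate block, which drops V1 because F1 has no value. Leaving out each pool gave −2.0 to 0.57, with the change of sign from V1. In the pools numbered 2 and 3 it was 0.57 with U6, 0.90 with the global mean, 0.30 without a reference and −0.25 with the other controls. For mmu-miR-335-3p, at −0.33, the value was 0.0082 with the global mean, in all pools and in those numbered 2 and 3, 0.0287 with undetermined wells set to 40 or 35, and −0.77 to 0.12 with each pool left out, positive without V2. For mmu-miR-296-5p, at 0.70, it was −0.12 with the other controls, in all pools and in those numbered 2 and 3, and −0.0604 to 1.46 with each pool left out, negative without V2. The replicate block left both of these at their values. The arm difference of miR-335, at 0.89, kept its sign under the alternatives tried, from 0.44 (without V2) to 2.47 (undetermined wells at 40). These alternatives could hardly change that sign. The 3p assay has no value in V1 or F1, so leaving either out, the block and the exclusion of wells from 35 cycles left it at 0.89. Both vitrified values lay above both fresh ones, so leaving out V2, V3, F2 or F3 could not turn the sign. With undetermined wells set to 40 or 35 cycles, the 3p value of V1 was that limit, later than its 5p Ct of 34.38. In F1 both arms were set to the limit and so did not differ. The larger values under these settings therefore come from the limit and not from a measured 3p Ct. The difference of 1 determined well between the groups was 0 without V3 or F1 and 2 without V1. The unadjusted count of 1 became 4 with the block, 9 in the methods' test, 10 without V1, and 16 to 32 in the pools numbered 2 and 3. With the other controls the share of assays above 0 was 24.2% against 48.1%, with the global mean 54.9%, without a reference 40.0%, with undetermined wells at 40 and 35 it was 71.9% and 69.6%, and the median moved from −0.05 to −0.78 with those controls. The limit of 40 cycles leaves 33 of the 48 wells without a value, and a lone well has no error.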
